A study of Mus musculus with 10 samples.

Results

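The nuclear genes for the subunits of the mitochondrial respiratory chain and ATP synthase were examined in 3 muscles of the mouse. They were taken by symbol as every protein-coding gene named Nduf with a letter a, b, c, s, or v and a number, Sdha to Sdhd, Uqcr, Cyc1, Cycs, Cox4 to Cox8 with a letter, or Atp5. In the annotation, 87 genes met this rule, and 83 of the 16112 genes in the deposited count tables did: 37 of complex I, 4 of complex II, 9 of complex III, 15 of complex IV, 17 of complex V, and cytochrome c (Cycs). The other 4 (Cox6b2, Cox7b2, Cox8c, and a second gene model of Atp5o) were not analysed here. All 83 were read in every library, and 81 of them with at least 10 counts in each, the exceptions being Cox4i2 and Ndufa4l2. The symbol rule puts Ndufa4 and Ndufa4l2 under complex I, although the Ndufa4 protein is known as a subunit of complex IV. It also takes in Cox7a2l, which is known for joining complexes III and IV, and it misses Ndufab1.

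RNA was sequenced from 3 extensor digitorum longus (EDL), 3 psoas, and 4 soleus samples of wild-type mice from the strain B6C3Fe a/a-Ttnmdm/J. The mice were aged between 32 and 54 days, and no treatment is named. The paper states that they were also used in another study, which it does not describe. EDL is a fast muscle of the lower leg, psoas a fast muscle of the hip and back, and soleus a slow muscle of the calf. The ages in days were 42, 54, and 44 in EDL and in psoas, and 42, 44, 32, and 44 in soleus, in the order of the replicate numbers. Replicates 1 and 2 of EDL and of psoas and replicate 1 of soleus were labelled male, replicate 3 of EDL and of psoas and replicates 2 and 4 of soleus female, and the sex of soleus 3 was not given. The labels hold 7 animal codes, 3 of which gave more than 1 library, and the study states fewer mice than codes, so that the libraries were not all independent and p-values measure the spread between these libraries.

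The respiratory chain passes electrons from NADH (complex I) and from succinate (complex II) through ubiquinone to complex III, then through cytochrome c to complex IV, where oxygen is reduced. Complexes I, III, and IV pump protons across the inner mitochondrial membrane, and ATP synthase (complex V) uses the gradient to make ATP. All complexes but complex II also hold subunits made from the mitochondrial genome, so that nuclear and mitochondrial transcripts both feed each of them. Slow and oxidative fibers are known for a high content of mitochondria, and some subunits of complex IV exist in a muscle and heart form and a more widely used form, encoded by paralogs such as Cox8b and Cox8a.

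Promoters of 5 genes that are described in detail later are shown, because these genes differed between soleus and psoas at an adjusted p under 0.05. Each is the stretch of 250 bases before the start of the gene, 5′ to 3′ on the strand of the gene, from RefSeq (GRCm38.p6). Cox6a2 differed at this threshold too, but its promoter was not in the RefSeq table used and is not shown. Capitals mark letters that match 1 of 4 motifs, searched on both strands: the palindrome of 10 letters bound by NRF1, AAGGTCA of the estrogen-related receptors, CCGGAAG of GABP, and AAGATGGCG of YY1, factors known for acting on mitochondrial genes. Cox6a1 lies on the minus strand (chr5:115348959-115349208) and holds the NRF1 palindrome, its first run of capitals, and, on the opposite strand, a GABP match, its second. Ndufb4 lies on the minus strand (chr16:37654369-37654618) and holds a match for the estrogen-related receptors. Cox8a (minus strand, chr19:7217617-7217866), Cox8b (minus strand, chr7:140900447-140900696), and Ndufb3 (plus strand, chr1:58586147-58586396) hold none of the 4 in these bases.
Cox6a1: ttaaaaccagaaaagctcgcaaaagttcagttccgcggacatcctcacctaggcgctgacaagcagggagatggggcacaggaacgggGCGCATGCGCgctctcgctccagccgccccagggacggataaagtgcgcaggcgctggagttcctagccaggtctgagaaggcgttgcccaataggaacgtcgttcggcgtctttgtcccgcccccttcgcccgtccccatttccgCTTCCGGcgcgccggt
Ndufb4: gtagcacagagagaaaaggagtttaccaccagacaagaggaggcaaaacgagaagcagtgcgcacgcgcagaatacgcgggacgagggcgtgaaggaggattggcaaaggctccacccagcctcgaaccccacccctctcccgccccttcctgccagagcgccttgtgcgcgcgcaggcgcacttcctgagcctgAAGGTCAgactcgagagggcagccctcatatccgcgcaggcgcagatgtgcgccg
Cox8a: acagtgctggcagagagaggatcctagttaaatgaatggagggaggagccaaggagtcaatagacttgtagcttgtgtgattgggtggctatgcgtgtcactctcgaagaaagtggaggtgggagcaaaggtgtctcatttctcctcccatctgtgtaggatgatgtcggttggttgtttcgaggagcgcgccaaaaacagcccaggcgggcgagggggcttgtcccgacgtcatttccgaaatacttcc
Cox8b: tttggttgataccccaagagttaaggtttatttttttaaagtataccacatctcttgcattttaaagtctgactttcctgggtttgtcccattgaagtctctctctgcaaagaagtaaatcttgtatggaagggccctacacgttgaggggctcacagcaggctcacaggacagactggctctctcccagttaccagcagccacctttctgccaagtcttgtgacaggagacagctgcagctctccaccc
Ndufb3: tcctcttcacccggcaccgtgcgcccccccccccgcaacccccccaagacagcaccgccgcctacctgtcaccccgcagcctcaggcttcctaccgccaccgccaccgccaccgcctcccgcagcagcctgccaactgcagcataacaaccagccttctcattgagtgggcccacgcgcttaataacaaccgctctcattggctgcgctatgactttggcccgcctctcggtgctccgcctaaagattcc

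In windows of 300 bases (250 before and 50 after the start), 65 of the 83 subunit genes had a promoter in the RefSeq table. The NRF1 letters were in 7.69% of these promoters and in 2.19% of those of the 10706 measured genes with a promoter. For the estrogen-related receptor letters the shares were 12.3% and 3.90%, for GABP 24.6% and 18.7%, and for YY1 10.8% and 3.38%. At least 1 of the 4 was in 29 subunit promoters (44.6%) and in 25.9% of those of the measured genes. Uqcrc1, Atp5g2, Atp5k, Cox6a1, and Ndufa11 held the NRF1 letters, and Cox8a held the GABP letters only across or after its start. These are matches of letters, and no binding was measured.

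The subunit genes were at their lowest in EDL. For each gene, counts were scaled with TMM factors and library totals to normalized CPM (counts per 1000000), and the mean was lowest in EDL for 77 of the 83 genes. It was highest in soleus for 61, in psoas for 21, and in EDL for Ndufa4l2 alone. The order EDL, psoas, soleus held for 58 genes, among them all 4 genes of complex II, 8 of 9 of complex III, 11 of 15 of complex IV, 14 of 17 of complex V, and 21 of 37 of complex I. The order EDL, soleus, psoas held for 19 genes, 13 of them of complex I.

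The summed normalized CPM of the 83 genes was 17109.7, 17747, and 22526 in EDL 1 to 3, 19388, 27891, and 26879 in psoas 1 to 3, and 29052, 23549, 30515, and 27239 in soleus 1 to 4. Every soleus library was above every EDL library, while psoas overlapped with both. The soleus mean was 1.44 times that of EDL, and the psoas mean 1.29 times. By complex, the ratio of soleus to EDL was 1.339 for complex I, 1.53 for complex II, 1.55 for complex III, 1.44 for complex IV, and 1.499 for complex V. Complex III also had the highest ratio of psoas to EDL (1.42). As a share of the summed CPM, complex I took 28.0 ± 0.670% in EDL and 25.9 ± 0.112% in soleus (SD), and complex III took 10.9 ± 0.188% in EDL, 12.02 ± 0.180% in psoas, and 11.8 ± 0.457% in soleus.

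**Figure D1:**
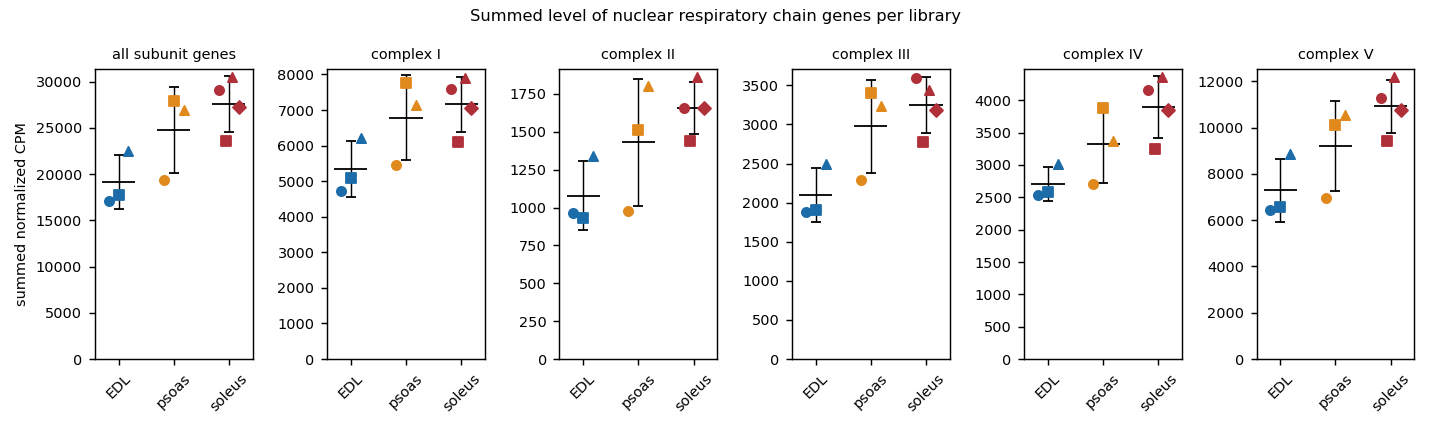
Summed normalized CPM of all 83 subunit genes and of each complex in EDL, psoas, and soleus. Points are libraries (circle, square, triangle, and diamond for replicates 1 to 4), and bars are the mean ± SD of 3, 3, and 4 libraries; EDL 3 is the highest EDL library, psoas 1 the lowest psoas library, and soleus 2 the lowest soleus library.

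The libraries of a muscle differed across the whole gene group. EDL 3 had the highest level of the 3 EDL libraries in 65 of the 83 genes, where 41.3% of all genes had it there. Psoas 1 was the lowest psoas library in 68 genes, and soleus 2 the lowest soleus library in 72. For psoas 1 and soleus 2 the shares over all genes are not given here, so these counts may not be particular to the subunit genes. EDL 3 and psoas 3 are female and were not trimmed, whereas replicates 1 and 2 of both muscles are male and were quality-trimmed. No soleus library was trimmed. The paper states that the libraries were sequenced over several runs, and it corrected its clustering for a sequencing batch. Runs were not modelled here. In the paper, psoas 1 has the lowest RNA integrity of the 10 libraries. Smaller shares of reads mapped in EDL 1, psoas 1, psoas 2, and soleus 1 than in the other libraries. The part of these factors in the library differences was not tested. As a percent of all raw counts, without scaling between libraries, the 83 genes took 2.12 ± 0.552% in EDL, 2.07 ± 0.647% in psoas, and 2.99 ± 0.218% in soleus (SD). On this measure the psoas mean was not above that of EDL. Total counts ranged from 12737971 to 50431713, and in EDL 1, psoas 1, psoas 2, and soleus 1 the gene Lars2 was at 76901 to 172190 CPM, against 40.6 to 685 CPM elsewhere. In the same libraries the gene CT010467.1 was at 37539 to 99780 CPM, against 74.7 to 602 CPM elsewhere. The totals behind the raw percents include both genes, which lowers the percents in these libraries. Since these are whole muscles, fewer fibers of a type and less RNA per fiber cannot be told apart.

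**Figure D2:**
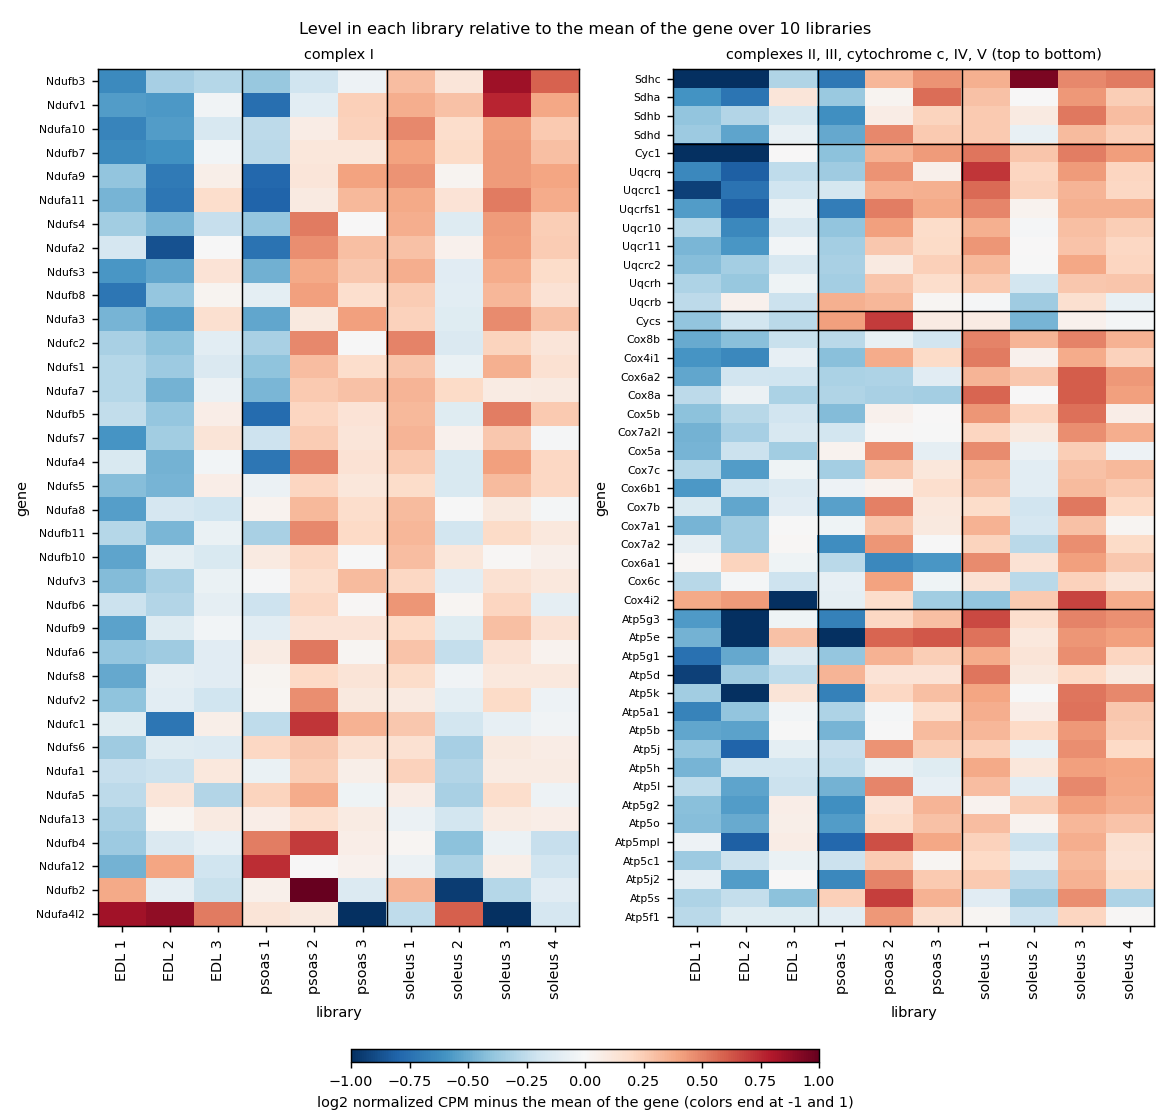
Log2 normalized CPM of the subunit genes (rows, with 1 gene not shown) in each library (columns) minus the mean of that gene over 10 libraries. Complex I is on the left, and complexes II and III, cytochrome c, and complexes IV and V are on the right from top to bottom. Within each complex, rows are ordered by fold change between soleus and EDL. EDL 1 and EDL 2 are blue in most rows, soleus 1, 3, and 4 are red in most rows, and psoas 1 stands apart from psoas 2 and psoas 3.

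Soleus and EDL, the slow and the fast muscle of the lower leg, differed most. The median log2 fold change of the 83 genes was 0.49 (1.40-fold), against -0.05 over all 16112 genes tested, and 80 of the 83 were higher in soleus. At an adjusted p under 0.05 (edgeR, Benjamini-Hochberg over all genes), 17 of the 83 rose in soleus and none fell, where 9.79% of all genes rose and 8.80% fell. At the thresholds of the study (adjusted p under 0.01 and over 2-fold), none of the 83 passed, against 5.77% of all genes. In 43 genes (51.8%) the unadjusted p was under 0.05, all higher in soleus, where 35.0% of all genes were under 0.05 and 17.0% were under it and higher. DESeq2 gave 2 genes (Cyc1 and Sdhc) at the thresholds of the study. The libraries of the 2 muscles did not overlap in 37 genes, all higher in soleus, where 15.2% of all genes were apart in this direction. By complex, 4 of 37 genes rose in complex I, 1 of 4 in complex II, 3 of 9 in complex III, 5 of 15 in complex IV, and 4 of 17 in complex V.

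The number of called genes moved with the libraries in the fit. EDL 3, the highest EDL library in most subunit genes, was below every soleus library in 40 of the 83 genes and in 26.1% of all genes. With EDL 3 as the only EDL library, in a fit of untrimmed libraries that assumes EDL and psoas to vary like soleus, none was called and the median was 0.22, against -0.01 over all genes. With read trimming as a covariate 1 gene (Cox8b) was called. Without EDL 1 the count was 1 (Cox8b again), without EDL 2 it was 3, and without EDL 3 it was 36. With sex as a covariate, which leaves out soleus 3, 6 were called. Without soleus 1 the count was 8, without soleus 3 it was 7, without soleus 4 it was 10, and with DESeq2 it was 27. Cox8b kept its call in 20 of 21 alternative settings, Ndufb3 in 18, and Cox6a2, Sdhc, and Uqcrq in 17 each. Trimming and sex move together in EDL and psoas.

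In complex I, the 4 genes that rose were Ndufb3, Ndufb7, Ndufa10, and Ndufv1. Ndufv1 encodes the core subunit that binds NADH, and the other 3 encode accessory subunits. Ndufb3 was at 59.5, 73.6, and 75.7 CPM in EDL and at 115, 100.3, 166, and 139 CPM in soleus. Every soleus library was above every EDL library, and the log2 fold change was 0.90 ± 0.20 (SE), with an adjusted p of 0.0102. Ndufv1 was at 233, 231, and 335 CPM in EDL and at 442, 421, 583, and 449 CPM in soleus, again without overlap (0.83 ± 0.25 (SE) on the log2 scale, adjusted p = 0.0410). Ndufb7 and Ndufa10 had log2 fold changes of 0.73 (adjusted p = 0.0219) and 0.78 (adjusted p = 0.0161). They, with Ndufv1, Uqcrc1, Atp5d, Atp5g1, and Atp5g3, are named after their values were seen.

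All 4 genes of complex II, which also serves the citric acid cycle as succinate dehydrogenase, had higher means in soleus, and 1 of them passed. Sdhc, a membrane anchor, was at 30.4, 31.1, and 50.9 CPM in EDL, 38.3, 79.1, and 85.7 CPM in psoas, and 80.5, 120.3, 87.7, and 89.8 CPM in soleus. All soleus libraries were above all EDL libraries, with soleus 2 the highest, and the log2 fold change of 1.3396 ± 0.30 (SE) (adjusted p = 0.0107) was the largest of the 83 genes in this comparison. The other anchor, Sdhd, was at 186, 166, and 227 CPM in EDL and 286, 227, 298, and 282 CPM in soleus, where soleus 2 lay just under EDL 3 (log2 fold change 0.50, adjusted p = 0.152). For the flavoprotein Sdha and the iron-sulfur protein Sdhb, the log2 fold changes were 0.61 (adjusted p = 0.134) and 0.59 (adjusted p = 0.0761).

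In complex III, Cyc1, Uqcrc1, and Uqcrq rose in soleus. Cyc1 encodes cytochrome c1, the heme protein that hands electrons to cytochrome c. It was at 110.4, 109, and 229 CPM in EDL and 332, 277, 326, and 305 CPM in soleus, with EDL 3 the highest EDL library and below all soleus libraries. Its log2 fold change was 1.05 ± 0.29 (SE) (adjusted p = 0.0290). Uqcrq, a small subunit, was at 76.2, 67.5, and 99.96 CPM in EDL and 195, 138, 160.1, and 139 CPM in soleus without overlap (0.96 ± 0.23 (SE), adjusted p = 0.0153). Uqcrc1, a core protein of the complex, had a log2 fold change of 0.93 (adjusted p = 0.0169). At the other end, Uqcrb, the complex III gene with the highest level per length, was at 277, 342, and 286 CPM in EDL and 329.6, 259.5, 372, and 316 CPM in soleus, which overlap (log2 fold change 0.08, adjusted p = 0.778).

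In complex IV, Cox5b, Cox6a2, Cox7a2l, Cox8a, and Cox8b rose in soleus. Cox8b, the muscle form of a small subunit, was at 223, 236, and 270.3 CPM in EDL and 445, 399, 445, and 400.3 CPM in soleus. The groups were far apart relative to their spread, and the log2 fold change of 0.80 ± 0.16 (SE) had the lowest adjusted p of the 83 genes in this comparison (0.00584). Cox6a2, another muscle form, was at 151, 189, and 189 CPM in EDL and 275, 260.3, 328, and 292 CPM in soleus (0.71 ± 0.16 (SE), adjusted p = 0.0128). Cox7a1, the third muscle form, did not pass and its libraries overlapped, with 203, 219, and 279 CPM in EDL and 356, 249, 344, and 285 CPM in soleus (log2 fold change 0.40, adjusted p = 0.160). Cox7a2l and Cox5b had log2 fold changes of 0.61 (adjusted p = 0.0207) and 0.62 (adjusted p = 0.0392). Cox4i1, the main form of the largest nuclear subunit, was just outside the threshold at 0.72 (adjusted p = 0.0533).

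In complex V, Atp5d of the central stalk, Atp5h of the peripheral stalk, and Atp5g1 and Atp5g3 rose in soleus. Atp5g1 and Atp5g3 are separate genes for the same mature protein of the membrane ring. Atp5h was at 232, 278, and 279.5 CPM in EDL and 415, 347, 427, and 422 CPM in soleus, without overlap (0.61 ± 0.16 (SE), adjusted p = 0.0230). Atp5g3 was at 148, 109, and 212 CPM in EDL and 346, 246, 309, and 301 CPM in soleus (0.94 ± 0.28 (SE), adjusted p = 0.0384). The log2 fold changes of Atp5d and Atp5g1 were 0.73 (adjusted p = 0.0255) and 0.75 (adjusted p = 0.0400). Atp5a1, of the catalytic head and the complex V gene with the highest level per length of summed exons, was at 1335, 1612, and 2072 CPM in EDL and 2729, 2218, 3087, and 2546 CPM in soleus and missed the threshold (0.66, adjusted p = 0.0724).

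**Figure D3:**
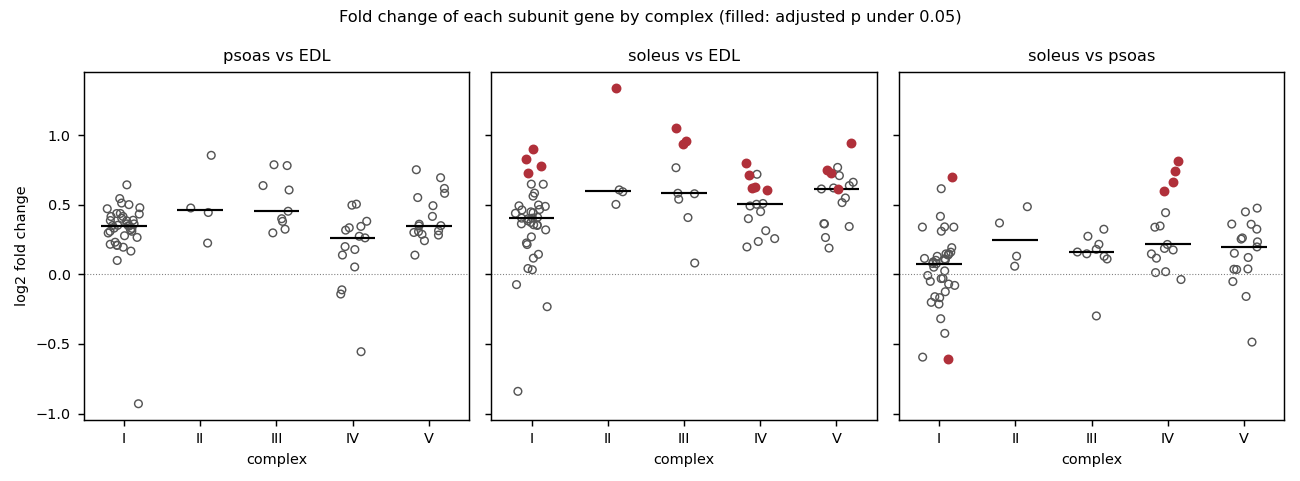
Log2 fold change of each subunit gene (points) by complex for psoas over EDL, soleus over EDL, and soleus over psoas, with the median of each complex as a line and genes at an adjusted p under 0.05 filled. The counts of filled points are 0, 17, and 6, and the medians of complex I are 0.35, 0.40, and 0.08; Cycs is not drawn.

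Between psoas and EDL, both fast muscles, the levels were on the whole higher in psoas without a gene that passed. The median log2 fold change was 0.35 (1.27-fold) against 0.01 over all genes, and 79 of the 83 were higher in psoas. At an adjusted p under 0.05 no gene was called in the edgeR fit, where 4.76% of all genes rose and 6.34% fell, nor at the thresholds of the study, where 2.11% of all genes passed. The unadjusted p was under 0.05 in 19 genes (22.9%), a smaller share than the 29.0% of all genes. Of the 19, 18 were higher in psoas, where 13.6% of all genes were under 0.05 and higher. DESeq2 called 8 higher and 1 lower. In 15 genes every psoas library was above every EDL library (13.4% of all genes), and in 2 every one was below (16.3% of all genes). Without EDL 3, 10 genes were called higher and 1 lower, and with read trimming as a covariate 7 and 1. In the untrimmed libraries the median was 0.21, against -0.02 over all genes.

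The gene nearest to the threshold between psoas and EDL was lower in psoas. Cox6a1, the widely used form beside Cox6a2, was at 11.8, 13.6, and 11.3 CPM in EDL and 9.66, 7.48, and 7.79 CPM in psoas. The libraries did not overlap, and the log2 fold change was -0.56 ± 0.16 (SE) with an adjusted p of 0.0509. Cytochrome c (Cycs) had its highest levels in psoas, with 565, 655, and 616 CPM in EDL, 988, 1208, and 787 CPM in psoas, and 786, 538, 766, and 731 CPM in soleus. All psoas libraries were above all EDL and all soleus libraries, and the log2 fold changes were 0.70 ± 0.22 (SE) for psoas over EDL (adjusted p = 0.0649) and -0.50 ± 0.21 (SE) for soleus over psoas (adjusted p = 0.138). Atp5s, a factor associated with ATP synthase and the lowest of the Atp5 genes per length, was at 7.68, 8.07, and 7.14 CPM in EDL, 11.2, 15.3, and 12.1 CPM in psoas, and 8.76, 7.42, 13.1, and 7.65 CPM in soleus (psoas over EDL 0.75, adjusted p = 0.0557). Only soleus 3 reached the range of the psoas libraries.

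Soleus and psoas were close in most subunit genes, and the shares called in each direction were below those over all genes. The median log2 fold change was 0.13 against 0.02 over all genes, with 62 of 83 higher in soleus. It was -0.05 both with read trimming as a covariate and without psoas 1. At an adjusted p under 0.05, 5 genes rose in soleus, where 7.75% of all genes did, and 1 fell, where 6.78% did. Of the 6, 4 belong to complex IV (Cox6a1, Cox6a2, Cox8a, and Cox8b), which holds 15 of the 83 genes. The other 2 belong to complex I (Ndufb3 and Ndufb4), which holds 37. The unadjusted p was under 0.05 in 12 genes (14.5%), 9 higher and 3 lower, against 28.4% of all genes. At the thresholds of the study none passed, against 5.69% of all genes, and DESeq2 gave none either. Libraries were apart in 10 genes higher in soleus (13.9% of all genes) and 2 lower (11.9%). The fit of untrimmed libraries alone has psoas 3 as its only psoas library and EDL 3 as its only EDL library, so it cannot decide these calls. With trimming as a covariate 2 of the 6 were called, and with the replicate block 1. Without psoas 1, soleus 3, or soleus 4, 2 genes were called higher, and without psoas 2 or psoas 3, 3. Cox6a1 kept its call in 20 of 21 alternative settings and Cox8a in 19, while Cox6a2 kept it in 13, Cox8b in 12, and Ndufb3 in 11.

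Cox6a1 had the lowest adjusted p, with 9.66, 7.48, and 7.79 CPM in psoas and 16.2, 12.9, 15.5, and 14.1 CPM in soleus. The soleus libraries were all above, by 0.81 ± 0.16 (SE) on the log2 scale (adjusted p = 0.00547). Its promoter is the one shown with matches for NRF1 and GABP. Its muscle-form partner Cox6a2 rose by 0.66 ± 0.16 (SE) (adjusted p = 0.0197), from 174, 175, and 200.5 CPM to 275, 260.3, 328, and 292 CPM. Both forms of the Cox8 pair rose as well. Cox8a was at 19.8, 19.5, and 19.2 CPM in psoas and 36.5, 24.4, 37.1, and 32.4 CPM in soleus, with soleus 2 nearest to psoas (0.74 ± 0.17 (SE), adjusted p = 0.0119). Cox8b was at 261, 299, and 277 CPM in psoas and 445, 399, 445, and 400.3 CPM in soleus (0.60 ± 0.15 (SE), adjusted p = 0.0243). For all 4 genes, psoas and soleus did not overlap.

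The pair of complex I genes moved in opposite directions. Ndufb3 was at 71.2, 80.6, and 89.4 CPM in psoas and 115, 100.3, 166, and 139 CPM in soleus (0.70 ± 0.20 (SE), adjusted p = 0.0354), with no overlap. Ndufb4, an accessory subunit, was at 88.0, 103, and 107 CPM in EDL, 162, 184, and 119 CPM in psoas, and 115, 85.2, 109, and 96.6 CPM in soleus. It fell in soleus relative to psoas (-0.61 ± 0.18 (SE), adjusted p = 0.0453), while EDL and soleus overlapped (0.03, adjusted p = 0.917). The call of Ndufb4 was lost in 13 of 21 alternative settings, among them the fits without EDL 1, EDL 2, psoas 1, psoas 2, or any 1 of the soleus libraries.

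Levels of the paralogs were compared per kilobase of exon (FPKM). The muscle form was above its partner in each of the 10 libraries for all 3 pairs. Cox8b made up 95.2% ± 0.717 of the Cox8b and Cox8a pair in EDL, 96.1% ± 0.289 in psoas, and 95.7% ± 0.560 in soleus (mean ± SD over 3, 3, and 4 libraries). Cox6a2 made up 93.7% ± 0.791 of its pair in EDL, 95.8% ± 0.777 in psoas, and 95.3% ± 0.479 in soleus. Cox7a1 made up 73.7% ± 2.91, 77.5% ± 4.44, and 75.1% ± 2.09. The means of the 3 muscles lay within 3.73 percentage points of each other in the Cox7a1 share, and closer in the Cox8b and Cox6a2 shares. The largest difference in the Cox6a2 share was 2.11 percentage points between psoas and EDL, whose libraries were apart (exact two-sided permutation test, p = 0.1, adjusted p = 0.5 over 15 tests). With 3 against 3 libraries this test cannot give a p under 0.1, and with 4 against 3 none under 0.0571, so that no share could pass 0.05.

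**Figure D4:**
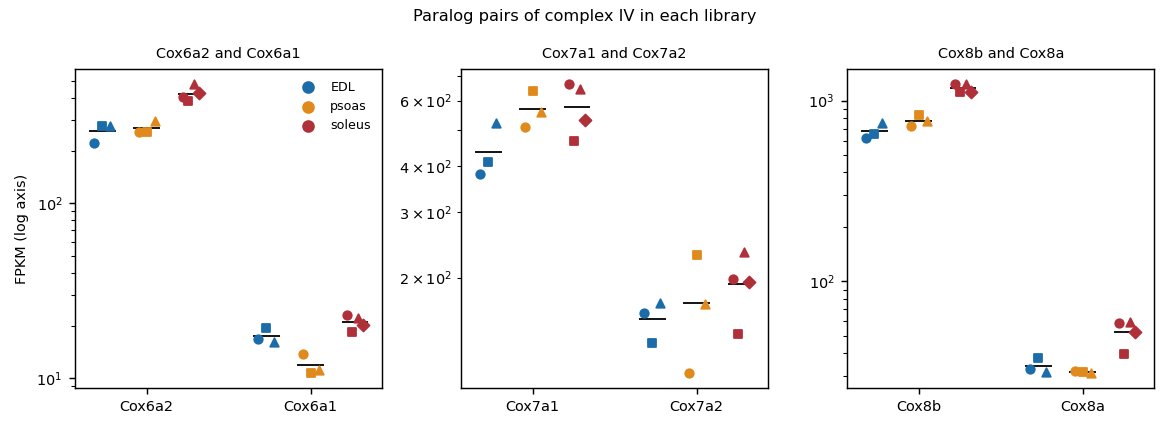
FPKM on a log axis of the muscle form and the widely used form of 3 complex IV subunits in each library of EDL (blue), psoas (orange), and soleus (red), with group means as lines and the same symbols for replicates 1 to 4. The muscle form lies above its partner in each library, and both forms of the Cox6a and Cox8 pairs are higher in soleus than in psoas.

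A further pair of paralogs was barely read. Cox4i2, a form of Cox4i1 known from lung and from low oxygen, had a mean of 0.602 FPKM over the 10 libraries, the lowest in complex IV, and made up 0.294% ± 0.188 of its pair in EDL, 0.187% ± 0.0573 in psoas, and 0.200% ± 0.0640 in soleus. Ndufa4l2, the paralog of Ndufa4, was at 1.17, 1.21, and 0.934 CPM in EDL, 0.712, 0.697, and 0.283 CPM in psoas, and 0.547, 0.987, 0.239, and 0.581 CPM in soleus. The groups overlapped between EDL and soleus, and the log2 fold change of -0.84 ± 0.44 (SE) for soleus over EDL did not pass (adjusted p = 0.195). It was also the most negative of the 83 in that comparison.

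Across the 10 libraries, the highest mean level per length of summed exons was that of Cox8b in complex IV (875 FPKM), Atp5a1 in complex V (678 FPKM), Uqcrb in complex III (386 FPKM), Ndufb9 in complex I (370.5 FPKM), and Sdhd in complex II (197 FPKM). The lowest were Cox4i2, Atp5s (4.86 FPKM), Uqcrq (66.5 FPKM), Ndufa4l2 (0.687 FPKM), and Sdhc (20.5 FPKM). Summed exons of a gene ranged from 360 to 8086 bases over the 83 genes and can include exons that muscle does not use. With the length of the longest principal transcript in their place, the highest were Atp5b in complex V (1277 FPKM), Ndufa4 in complex I (634 FPKM), and Sdhb in complex II (384 FPKM), while Cox8b, Uqcrb, and all the lowest kept their place.

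In the median fold change per gene, the mitochondrially encoded subunits, which share the complexes with these genes, did not follow the same order. As a percent of raw counts, they took 8.69 ± 2.62% in EDL, 9.57 ± 0.946% in psoas, and 10.6 ± 2.25% in soleus (SD). These means were in the order EDL, psoas, soleus, and the libraries of the muscles overlapped. The 12 listed mitochondrial genes had a median log2 fold change of 0.88 for psoas over EDL, 0.06 for soleus over EDL, and -0.81 for soleus over psoas, and none was called in any of the 3. The list does not hold cytochrome b, the mitochondrially encoded subunit of complex III. Between soleus and psoas, 11 of the genes were lower in soleus. Only mt-Co1 was higher there, with means in the order EDL, psoas, soleus. For mt-Co1, the catalytic subunit of complex IV, the levels were 29996, 48806, and 32736 CPM in EDL, 51854, 50318, and 44183 CPM in psoas, and 62467, 34836, 76273, and 45133 CPM in soleus, with overlap between all muscles. For mt-Atp6 of complex V they were 3255, 5580.1, and 3152, 13783, 7251, and 4706, and 5067, 2806, 6021, and 3492 CPM. Psoas 1, the lowest psoas library of most nuclear subunit genes, was the highest in mt-Atp6, and soleus 2 was the lowest soleus library in mt-Co1 and in mt-Atp6 as well. Whether the nuclear and mitochondrial genes differ in their response was not tested.

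Genes that help to build the complexes also differed between the muscles. Of 48 assembly factors, 11 (22.9%) rose in soleus over EDL, where 9.79% of all genes did, and 8 (16.7%) rose in psoas over EDL, where 4.76% did. Between soleus and psoas, 2 (4.17%) rose and 5 (10.4%) fell, near the 7.75% and 6.78% of all genes. Sdhaf4, which helps to assemble complex II, rose in soleus over EDL by 1.52 ± 0.34 (SE) (adjusted p = 0.0116) and over psoas by 1.16 ± 0.34 (SE) (adjusted p = 0.0408). Cox10, an enzyme of heme A synthesis for complex IV, rose in psoas over EDL by 1.22 ± 0.22 (SE) (adjusted p = 0.00916) and in soleus over EDL by 0.99 ± 0.21 (SE) (adjusted p = 0.00940). The 5 that fell in soleus relative to psoas were Taco1, Ndufaf5, Ttc19, Coa7, and Pet100, with log2 fold changes between -0.77 and -0.45. Of 77 genes of the mitochondrial ribosome, 16 (20.8%) rose in soleus over EDL, against 9.79% of all genes. None fell in any comparison, where 8.80% of all genes fell in soleus over EDL, 6.34% in psoas over EDL, and 6.78% in soleus over psoas. In psoas over EDL 6 (7.79%) rose, against 4.76% of all genes, and in soleus over psoas 1 (Mrpl14, 1.30%), against 7.75% of all genes.

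Among the regulators known for driving subunit genes were changes of over 2-fold. Of 14 listed, 5 rose in soleus over EDL, where 9.79% of all genes did, and all 5 were past the thresholds of the study, which 5.77% of all genes passed. In psoas over EDL 6 rose, where 4.76% of all genes did, and in soleus over psoas 3, where 7.75% did. Esrrg, an estrogen-related receptor, was at 1.80, 2.79, and 2.64 CPM in EDL, 7.55, 6.28, and 6.80 CPM in psoas, and 31.4, 32.8, 25.8, and 26.1 CPM in soleus. None of the muscles overlapped, and it rose in soleus over EDL by 3.60 ± 0.20 (SE) (adjusted p = 4.64e-06) and in psoas over EDL by 1.52 ± 0.20 (SE) (adjusted p = 0.00230). Perm1, a muscle regulator that acts with these receptors, was at 42.9, 60.4, and 63.2 CPM in EDL, 123, 133, and 111 CPM in psoas, and 184, 208, 276, and 178 CPM in soleus, and rose in soleus over EDL by 1.93 ± 0.21 (SE) (adjusted p = 2.45e-04). Esrra rose by 1.24 (adjusted p = 0.00281) in the same comparison. For Ppargc1a, the coactivator PGC-1α, the change was 0.33 ± 0.15 (SE) for soleus over EDL (adjusted p = 0.143), and it rose in psoas over EDL (0.58, adjusted p = 0.0403). Nrf1 and Gabpa were within 0.32 of 0 on the log2 scale in all 3 comparisons, and neither was called.

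**Figure D5:**
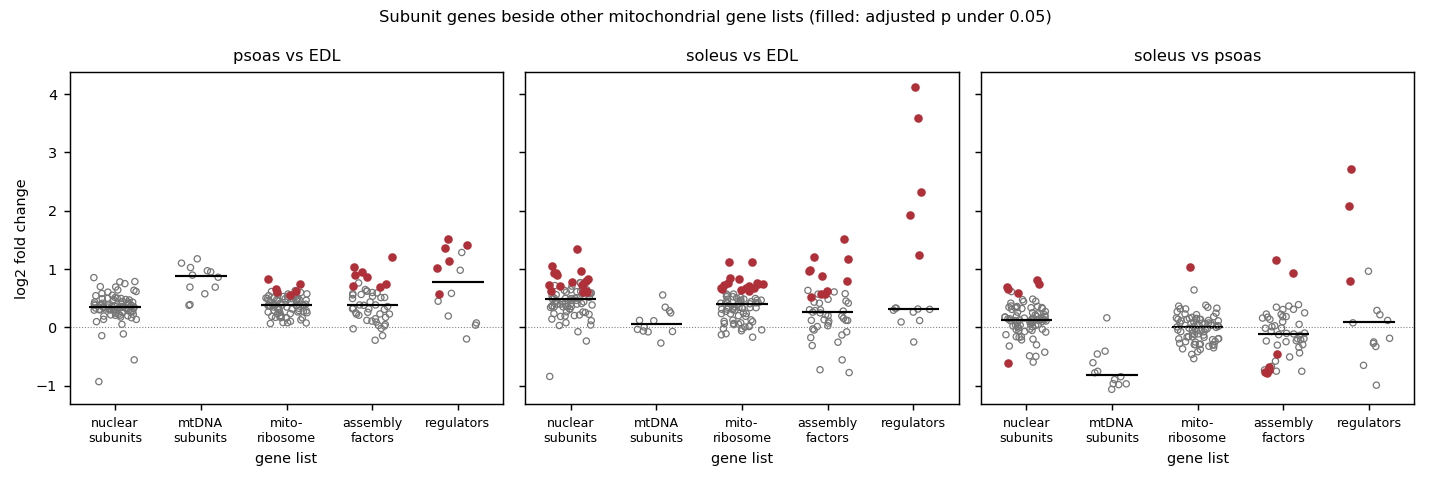
Log2 fold change of the 83 nuclear subunit genes beside 12 mitochondrially encoded subunits, 77 genes of the mitochondrial ribosome, 48 assembly factors, and 14 regulators in the 3 comparisons, with list medians as lines and genes at an adjusted p under 0.05 filled. The median of the mitochondrially encoded genes is 0.88, 0.06, and -0.81 from left to right, where that of the nuclear subunits is 0.35, 0.49, and 0.13.

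Markers of fiber types and other cells moved between the same libraries. Over all genes, 9.79% were called higher and 8.80% lower in soleus over EDL. The shares were 4.76% and 6.34% in psoas over EDL, and 7.75% and 6.78% in soleus over psoas. The summed level of 8 slow fiber genes was 77.1 to 369 CPM in EDL, 38.9 to 115 CPM in psoas, and 19712 to 31555 CPM in soleus, with all 8 called higher in soleus against both. Of the 8, 4 were called lower in psoas than in EDL. The type 2A gene Myh2 was at 2006 to 3125 CPM in EDL, 2248 to 6308 CPM in psoas, and 9488 to 11597 CPM in soleus, and the 5 fast glycolytic genes summed to 55349 to 80276, 78348 to 85302, and 5444 to 14684 CPM. Of these 5, 3 were called lower in soleus than in EDL and 4 lower in soleus than in psoas. The 5 fibroblast genes summed to 1868 to 3371 CPM in EDL, against 588 to 896 CPM in psoas and 588 to 1195 CPM in soleus, and the 7 tendon genes to 540 to 582, 11.8 to 30.0, and 42.3 to 371 CPM. Of the 5 fibroblast genes, 4 were called lower in psoas and 4 lower in soleus than in EDL. All 7 tendon genes were called lower in psoas than in EDL and higher in soleus than in psoas. In soleus, 1 tendon gene was called lower than in EDL. The 5 white adipocyte genes summed to 3.199 to 11.1, 2.90 to 16.2, and 12.7 to 51.5 CPM. Of them, 2 were called higher in soleus over EDL and 1 in soleus over psoas. Of 4 brown adipocyte genes, Ppara, which is also among the regulators, and Cidea were measured, and Ucp1 and Elovl3 were not analysed here. The 2 summed to 1.54 to 2.88 CPM in EDL, 4.18 to 7.93 CPM in psoas, and 15.4 to 16.1 CPM in soleus, and both were called higher in soleus over EDL, Ppara alone in psoas over EDL, and Cidea alone in soleus over psoas. Cidea was at 0.490, 0.452, and 0.220 CPM in EDL, 1.13, 0.507, and 0.425 CPM in psoas, and 9.51, 3.35, 8.61, and 4.80 CPM in soleus. Sums of macrophage, endothelial, pericyte, erythroid, and Schwann cell genes overlapped between EDL and soleus. Psoas was below EDL in pericyte and smooth muscle genes (333 to 407 against 430 to 603 CPM). It was below soleus in endothelial genes (104 to 114 against 131 to 152 CPM), and its other sums overlapped with both muscles. In psoas, 1 macrophage and 1 endothelial gene were called lower than in EDL. In soleus, 1 erythroid gene was called lower than in EDL and 1 lower than in psoas. The part of these cells in the differences of the subunit genes was not tested.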

How the data were processed

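RNA of 10 muscle samples was sequenced after a stranded total RNA library preparation. The authors trimmed reads of 4 libraries with Trimmomatic 0.32, aligned read pairs with TopHat2 2.1.1 to the mouse genome (mm10, GRCm38.p4), and counted reads per gene in R. The deposited tables hold raw, unnormalized counts of 16112 genes that passed the authors' filter on low counts (10 reads in 3 samples). The handling of reads with several alignments and the strand setting are not given in the sources used here, so counts of subunit genes with processed pseudogenes are uncertain. Total counts, which set the precision, ranged from 12737971 to 50431713.

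Gene symbols, positions, and exon lengths came from GENCODE M21 (GRCm38). Counts were tested with edgeR 4.0.16 (R 4.3.3), in 1 quasi-likelihood fit of the 10 libraries with TMM normalization, no covariate, and Benjamini-Hochberg adjustment over 16112 genes. Groups came from the sample labels. Calls were made at an adjusted p under 0.05 and at the thresholds of the study. Normalized CPM and FPKM were computed from the same factors. The members and gene lists were chosen with earlier results of these data known, so lists are described by counts and medians, without a test. The script was tested on simulated data.

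Genes named with values are those called with the 3 largest and 3 smallest fold changes per comparison, the paralog pairs with Cox7a2l, the genes with the highest and lowest FPKM of each complex, the Sdh genes, Cyc1, and Cycs. Alternatives were DESeq2 1.42.0, limma-voom (limma 3.58.1) with the animal as a random effect, DESeq2 size factors, upper-quartile normalization, fits without mitochondrial genome genes, with a mean of at least 1 CPM, or with only 2 muscles, covariates for trimming and sex, a replicate block, and leaving out each library. The fit of untrimmed libraries only and the principal-transcript lengths were added after seeing the data. Promoters came from a RefSeq table. Values of 1 subunit gene are not reported here by name, although it entered the counts, sums, and medians.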

Additional observations from a re-analysis of the deposited data

Results flagged for a closer look

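In soleus, 1 library lay far from the other 3 in 2 of 37 values tested for outlying libraries by Dixon's ratio at its 95% limit. Chance passes this limit in about 1 of 20 groups. The 37 values come from the same soleus libraries and are not independent, so this rate cannot show whether the 2 arose by chance. For Atp5h the ratio was 0.859, with soleus 2 at 347 CPM against 415 to 427 CPM in the others. For the share of Cox8b in the pair with Cox8a it was 0.886, with soleus 2 at 96.6% against 95.4% to 95.5%. Soleus 2 was also the lowest soleus library in 72 of the 83 subunit genes, a count not set against all genes. The groups of 3 libraries, EDL and psoas, were not tested in this way.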

How the results depend on the processing

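The direction of the median fold change held under every alternative run for soleus over EDL and psoas over EDL, while for soleus over psoas it was -0.05 with trimming as a covariate and without psoas 1. For soleus over EDL, 1 gene was called higher with trimming as a covariate, 6 with sex, 11 with the replicate block, 27 with DESeq2, and 0 in untrimmed libraries, where the median was 0.22. At the stricter thresholds, 1 gene passed with only the 2 muscles, 2 with DESeq2, and 1 with limma-voom. For psoas over EDL, 7 were called higher and 1 lower with trimming as a covariate, 2 and 1 with sex, 2 and 1 with a mean of at least 1 CPM, 8 and 1 with DESeq2, 2 and 1 with limma-voom, and 0 and 1 with upper-quartile normalization or without mitochondrial genome genes. For soleus over psoas, 2 were called higher and 0 lower with trimming, 2 higher with sex, 1 and 0 with the replicate block, and 0 lower with only the 2 muscles.

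Leaving out each library in turn gave 1 to 36 genes called higher in soleus over EDL (0 to 4 at the stricter thresholds), 0 to 10 higher and 0 to 1 lower in psoas over EDL (0 to 1 at the stricter thresholds), and 2 to 5 higher and 0 to 1 lower in soleus over psoas. The difference in the Cox7a1 share between soleus and EDL then ranged from -0.335 to 2.22 percentage points, that in the Cox4i2 share between soleus and psoas from -0.0111 to 0.0452, and that in the Ndufa4l2 share from -0.0911 to 0.0608.

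From counts without exon length, the Cox7a1 share was 61.4% in EDL, 66.2% in psoas, and 63.1% in soleus, the Cox8b share 92.0%, 93.5%, and 92.9%, and the Cox4i2 share 0.0950% in psoas and 0.102% in soleus. In the untrimmed EDL library the shares were 94.5% for Cox6a2, 96.0% for Cox8b, and 0.0775% for Cox4i2. In untrimmed libraries, differences in share changed sign for Cox7a1 (-0.257 points) and Cox8b (-0.237) between soleus and EDL, for Cox4i2 between psoas and EDL (0.0598) and soleus and EDL (0.123), and for Ndufa4l2 between soleus and psoas (0.100292). The summed CPM was 25636 in EDL and 38818 in soleus when totals left out mitochondrial genome genes, and 22526 in the untrimmed EDL library. The causes of these shifts were not tested.

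Among same-numbered libraries, only psoas 1 and soleus 1 carry the same animal code. Deviations of same-numbered libraries from their group means correlated between 0.0881 and 0.503 for psoas and EDL, between -0.153 and 0.336 for soleus and EDL, and between -0.234 and 0.340 for soleus and psoas. Since not every pair was over 0.1, the numbers were not taken to pair the libraries. The correlations cannot show whether EDL and psoas libraries share an animal, because same-numbered ones also share their age, labelled sex, and read trimming.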
